A study of Mus musculus with 8 samples.

Results

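Cytosolic ribosomal protein genes encode the proteins of the large and small subunits of the cytoplasmic ribosome. They were taken by name from the deposited expression table, as the Rpl and Rps genes with a number, Rplp0, Rplp1, Rplp2 and Rpsa, leaving out pseudogene entries and ribosomal protein kinases, where the mean level over all libraries was at least 5 FPKM. The unit FPKM divides the fragments of a gene by its transcript length and by the size of the library. Of 84 genes that matched by name, 80 met this level, 48 of the large and 32 of the small subunit, out of 24339 genes in the table. The 4 below it were Rps27 (mean 3.31 FPKM), Rpl39l (0.78), Rpl3l (0.0191) and Rpl10l (0), and the lowest inside were Rps4l (22.8) and Rpl21 (28.5). Rps4l is annotated as a transcribed processed pseudogene, so 79 members are annotated with a coding sequence.

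The libraries came from cultured peritoneal macrophages, the resident phagocytes of the abdominal cavity, of C57BL/6 mice that either lacked the α7 nicotinic acetylcholine receptor (Chrna7 knockout, KO) or were wild type (WT). Cells of each genotype received 10 µM nicotine for 15 min and then 100 ng/ml lipopolysaccharide (LPS, a bacterial cell wall component) for 4 h, nicotine alone, LPS alone, or only the vehicles. That gives 8 groups with 1 library each, so every test set 4 libraries against 4 and took its error from departures from additivity, and the 4 libraries of an arm were not replicates of 1 condition. Where the cells of each library came from is not stated, so KO and the preparation of the KO cells cannot be told apart, and the tests use no more than the spread seen among the 8 libraries.

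Ribosomal protein genes are among the most strongly expressed housekeeping genes, and their products are made in near equal amounts for assembly with ribosomal RNA in the nucleolus. Their mRNAs start with a terminal oligopyrimidine (TOP) tract, through which the kinase complex mTORC1 and the binding protein LARP1 control their translation. Changes in their mRNA level are usually modest and shared by many members. Several members have further known roles, such as Rpl5 and Rpl11, which bind the ubiquitin ligase MDM2, and Rps6, a substrate of S6 kinases.

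Chrna7 was listed at 0 FPKM in all 8 libraries, WT included, and does not check the genotype labels. The FPKM summed over all genes ranged from 413052 to 854016 between libraries and was highest in the KO LPS and WT LPS libraries, and fragment counts were not given. A value near 0 may not show absence, because Gapdh, an enzyme gene used by every cell, was listed at 1.34 to 8.90 FPKM. Macrophage markers were present, with Lyz2 at 17580 to 32450 FPKM, but with nicotine 4 of 11 tested were called lower, among them Fcgr1 (-3.22) and Gata6 (-1.85), and 1 higher (limma, adjusted p under 0.05), with a median log2 change of -0.32. Of all genes tested, 24.1% were called higher and 22.2% lower with nicotine. Of 6 T and NK cell markers 3 were called higher with nicotine, with a median of 0.65, but 1 with equal FPKM sums. Of 9 B cell markers 2 were called higher, with a median of 0.21, or -0.03 with quantile scaling. Of 3 dendritic cell markers 1 was called higher, with a median of 0.24. Of 3 neutrophil markers 0 were above 0 and 1 was called lower, with a median of -0.88. The summed level of 10 mast cell markers was 326 (KO), 426 (WT), 640 (KO with LPS) and 822 FPKM (WT with LPS) in nicotine libraries, against 166, 221, 406 and 475 in their partners without nicotine. Of the 9 tested, 5 rose with nicotine and 8 with LPS by the same test, where 24.1% and 15.8% of all genes did, but with LPS 1 rose with equal FPKM sums and 4 with quantile scaling. Like that of the ribosomal protein genes described next, their summed level was higher in each nicotine library than in its partner. By gene, 2 of the 9 had a nicotine change below 0, Tpsab1 (-0.26 ± 0.16) and Gata2 (-0.21 ± 0.15). The part of the mast cell markers in the ribosomal protein results was not tested. In bulk RNA, a change in the number of cells of a type and a change in RNA per cell cannot be told apart.

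The 80 members were together at 70248 FPKM in the KO nicotine and LPS library and 82908 in its WT counterpart, the highest sums of the series. With nicotine alone they summed to 53732 in KO and 65287 in WT, with LPS alone to 45230 in KO and 49755 in WT, and with vehicle to 37575 in KO and 44664 in WT. Every nicotine library was above every library without it. The large subunit genes held 1.09 to 1.15 times the FPKM of the small subunit genes in each library, so both subunits moved together. Of the 80 members, 70 had their highest value in the WT library with nicotine and LPS, and 60 had their lowest in the KO vehicle library.

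As a share of the FPKM of all genes, the order was different. The members held 10.3% in KO and 12.3% in WT with nicotine, 11.2% in KO and 12.6% in WT with nicotine and LPS, 5.30% in KO and 6.25% in WT with LPS alone, and 8.495% in KO and 10.8% in WT with vehicle. The 2 libraries with LPS alone had the lowest shares. Leaving out the 10 most abundant other genes gave shares of 6.75% for KO LPS and 8.05% for WT LPS, still below the 10.95% of KO vehicle and the 13.5% of WT vehicle.

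**Figure D1:**
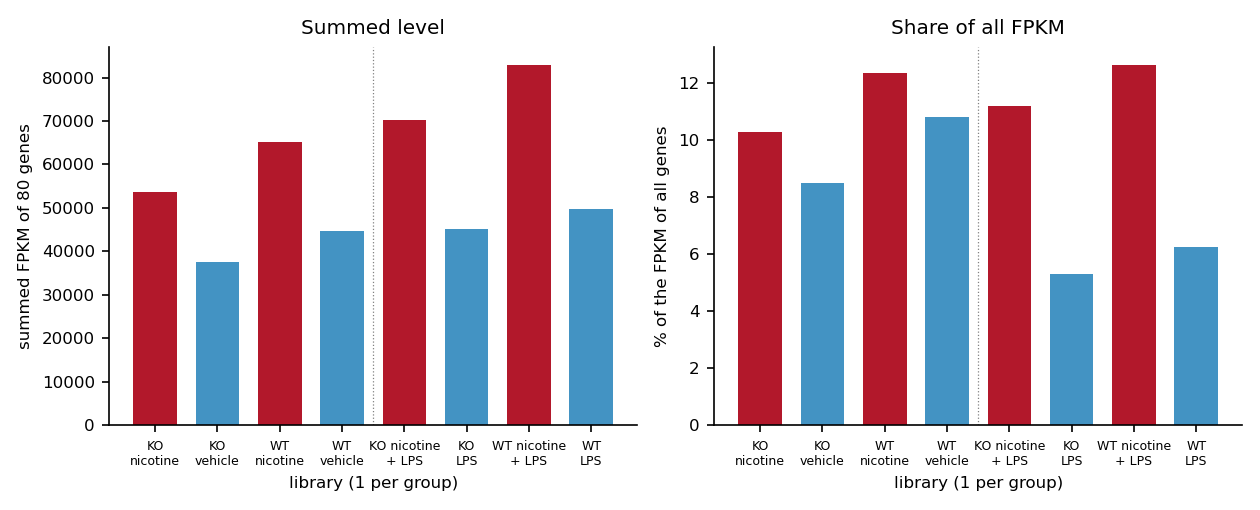
Left, FPKM summed over the 80 ribosomal protein genes in each library; right, the same as a percentage of the FPKM of all genes (1 library per group, so no error bars; red with nicotine, blue without; the dotted line separates libraries without LPS, at left, from those with LPS). The sums reach 70248 and 82908 FPKM with nicotine and LPS in KO and WT, while the shares are lowest with LPS alone, at 5.30% and 6.25%.

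Levels differed widely among members. Rps29 (mean 2006 FPKM), Rps9 (1682), Rps23 (1668) and Rpl41, which encodes one of the smallest known proteins (1606), were the highest on this per-length scale, and Rps4l (22.8), Rpl21 (28.5), Rpl7l1 (42.3) and Rpl30 (52.7) the lowest. Near-identical copies bear on such values. Of the 79 members with a coding sequence, 74 had at least 1 other annotated gene that matched it at 95% identity or more over at least 90% of its length, with a median of 5 and a highest count of 56 for Rpl21. How the deposited values divide reads among such copies is not given, so the level of these genes is uncertain. Rps27 was listed at 1.54 to 4.88 FPKM, while the similarly named Rps27rt was at 1141 to 4107 FPKM.

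**Figure D2:**
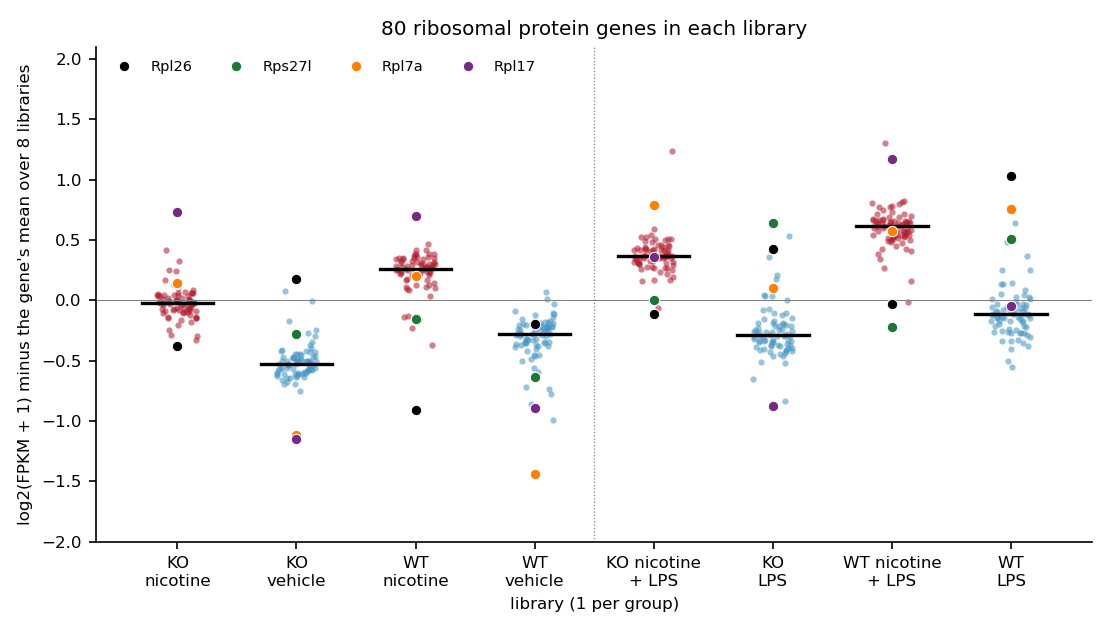
Level of each of the 80 genes in each library as log2(FPKM + 1) minus that gene's mean over the 8 libraries (points; black bars are medians over genes; red libraries had nicotine, blue did not; the dotted line separates libraries without LPS from those with LPS). Nearly all genes move together from library to library, and Rpl26, Rps27l, Rpl7a and Rpl17, drawn in their own colours, leave the group.

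Most members were higher with nicotine. With the effects of genotype and LPS in the model, 70 of 80 were higher with nicotine, 1 was lower and 9 did not pass the test (limma, Benjamini-Hochberg adjusted p under 0.05 over the 10447 genes that averaged 1 FPKM or more). Of all genes tested, 24.1% were called higher and 22.2% lower. The median change of the members was 0.62 on the log2(FPKM + 1) scale, or 1.53-fold, against -0.04 for all genes. By subunit, 41 of 48 large subunit genes and 29 of 32 small subunit genes rose, with medians of 0.62 and 0.61. In 72 members the value was higher with nicotine in all 4 matched pairs of libraries, a pattern seen in 29.5% of all genes. In 51 members all 4 nicotine libraries were above all 4 others, against 17.7% of all genes.

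The size of the call depended on how libraries are scaled to each other. With quantile scaling 19 members rose, close to the 23.6% of all genes called higher in that fit. With equal FPKM sums 51 rose, against 22.9% of all genes, and with nicotine as the only model term 29 rose, against 15.0%. The member medians were 0.49 with quantile scaling and 0.65 with equal sums. The median was above 0 under every scaling tried.

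The 3 genes of the ribosomal stalk, whose proteins recruit elongation factors, rose with nicotine, Rplp0 and Rplp1 above the member median of 0.62 and Rplp2 below it. Rplp0 had 998 (KO), 1086 (WT), 1402 (KO with LPS) and 1607 FPKM (WT with LPS) in nicotine libraries, against 657, 677, 742 and 703.5 in their partners without nicotine. The groups did not overlap, and the change was 0.85 ± 0.13 on the log2 scale (SE, limma adjusted p = 0.00294). Rplp1 rose by 0.80 ± 0.11 (adjusted p = 0.00205) and Rplp2 by 0.55 ± 0.10 (adjusted p = 0.00457). Rps15a, a small subunit protein gene, had 80.5, 91.1, 104 and 124 FPKM with nicotine in the same order, against 44.0, 50.4, 53.6 and 62.4 without it. This was the largest rise in the small subunit (0.90 ± 0.12, adjusted p = 0.00173).

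Rpl17, a protein at the rim of the exit tunnel of the large subunit, showed the largest change of all members. Its level was 398 (KO), 389 (WT), 307 (KO with LPS) and 542 FPKM (WT with LPS) with nicotine, against 107, 129, 130 and 231 without it. Every nicotine library was above every other, and the change was 1.48 ± 0.20, or 2.79-fold (adjusted p = 0.00194). The call held without each library in turn and under each scaling tried. Rpl17 has 20 near-identical genes in the annotation.

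Among the most abundant members, Rps29 had 1831 (KO), 2424 (WT), 2427 (KO with LPS) and 2923 FPKM (WT with LPS) with nicotine, against 1414, 1810, 1634 and 1582 without it. All 4 nicotine libraries were above the others, with a change of 0.56 ± 0.13 (limma adjusted p = 0.0122). Rpl41 had 1919, 1969, 2180 and 2178 FPKM with nicotine in that order, against 1011, 1185, 1363 and 1043 without it. Its change was larger, at 0.85 ± 0.13 (adjusted p = 0.00251), and the 4 nicotine values lay close together. A few low members stood apart in 1 library. Rpl21 had 65.8 FPKM in WT with nicotine and LPS and 16.3 to 31.8 in the other libraries, and Rpl30 had 114 FPKM in KO with nicotine and LPS and 23.4 to 62.5 in the others. Rpl21 passed the nicotine test (0.69 ± 0.21, adjusted p = 0.0342), a call lost without that library and also without any of 5 others.

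Some members have known roles outside the ribosome. Rps6, the S6 kinase substrate, rose by 0.69 ± 0.11 (limma adjusted p = 0.00293), Rpl5 by 0.63 and Rpl11 by 0.46. Rpl13a, a component of a complex that silences inflammatory mRNAs in human myeloid cells, rose by 0.85 ± 0.15 (adjusted p = 0.00436). Rps3, linked to DNA repair, rose by 0.66, and Rps19, mutated in a human inherited anaemia, by 0.70. Rpsa, also known as a laminin receptor, rose by 0.60, the late joining protein gene Rpl10 by 0.67, and Rpl39 of the exit tunnel by 0.72. Rps27rt, outside the name rule, rose by 0.87 ± 0.11 (adjusted p = 0.00134).

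**Figure D3:**
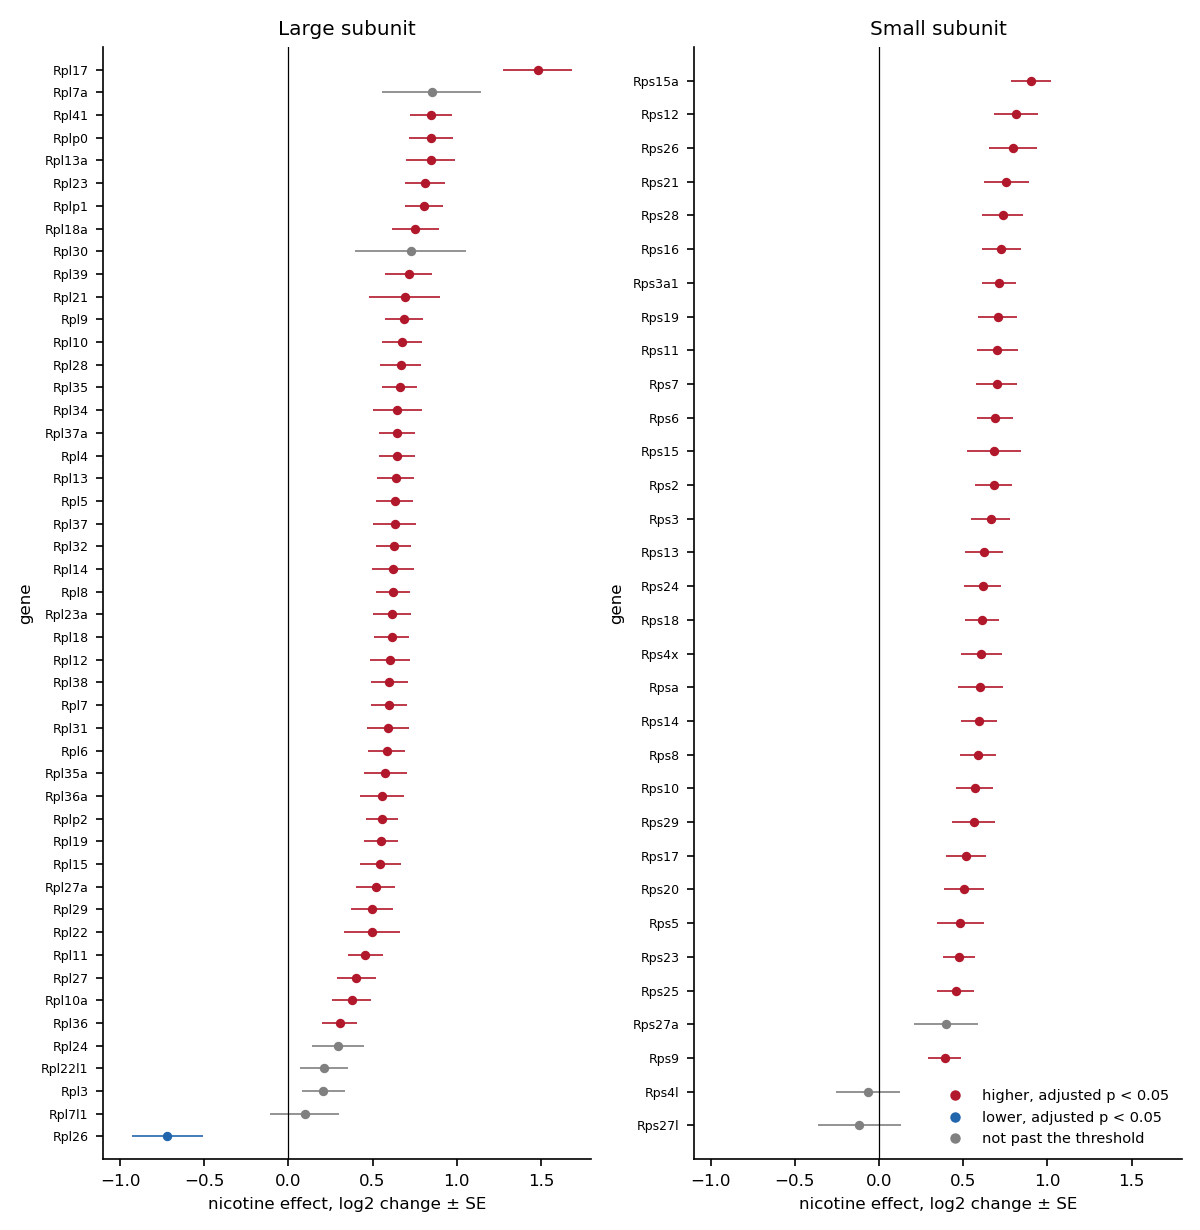
Fitted nicotine effect of each gene on the log2(FPKM + 1) scale, with its standard error from the limma model over 8 libraries, for the 48 large subunit genes at left and the 32 small subunit genes at right. Red points were higher and the blue point lower at adjusted p under 0.05, and grey points did not pass; most genes lie near the median of 0.62, Rpl17 lies at 1.48 and Rpl26 at -0.72.

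Rpl26, which encodes a large subunit protein, was the 1 member that fell. It had 59.0 (KO), 40.5 (WT), 71.1 (KO with LPS) and 75.4 FPKM (WT with LPS) with nicotine, against 87.1, 67.0, 104 and 159 without it. The value was lower in all 4 matched pairs, as in 28.0% of all genes, but the groups overlapped, since 2 of the nicotine libraries were above the WT vehicle library. The change was -0.72 ± 0.21 (limma adjusted p = 0.0289). The call ended without the WT nicotine, WT LPS, WT nicotine and LPS, KO vehicle or KO nicotine and LPS library (adjusted p of 0.0545 to 0.0898), and it held under each scaling.

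The 9 members that did not pass included all 4 with an added letter l in the name, which mark related copies of a family member. The changes were -0.12 ± 0.25 for Rps27l, -0.06 ± 0.19 for Rps4l, 0.10 ± 0.21 for Rpl7l1 and 0.21 ± 0.14 for Rpl22l1. Grouping them was done after their values were seen. Of the related genes without the added l, Rpl7 (0.60 ± 0.11, limma adjusted p = 0.00504), Rps4x (0.61 ± 0.12, adjusted p = 0.00816) and Rpl22 (0.50 ± 0.17, adjusted p = 0.0476) rose. The call of Rpl22 was lost under median centring and without 7 of the 8 libraries in turn. Rps27, too low to be a member, did not pass (0.51 ± 0.18, adjusted p = 0.0593). Rpl3, a protein close to the catalytic centre (0.21 ± 0.13), Rpl24 (0.29 ± 0.16), Rps27a, which is made as a fusion with ubiquitin (0.40 ± 0.19), and Rpl30 (0.73 ± 0.33) did not pass either. Rpl7a missed the threshold with a change of 0.85 ± 0.29 (adjusted p = 0.0507) and passed it under all 3 other scalings.

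Members with many and with few near-identical copies had similar medians. The 17 members with 10 or more such genes had a median nicotine change of 0.62, with 15 called higher, and the 15 members with 0 or 1 had a median of 0.62, with 13 called higher. Within 30 members lie 58 annotated small nucleolar RNA genes, a class made from the introns of host genes.

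Promoter sequences were available for 59 of the 80 members (RefSeq, GRCm38.p6, 250 bases before to 50 after the annotated start). Rpl17, Rps4l and Rpl3 had no entry. Among members with an entry, those with the 4 highest and the 4 lowest fitted nicotine changes are shown from 75 bases before to 25 bases after the start. This sets runs of C and T, wherever they lie in this window, side by side in genes that moved differently. The first of the longest such runs in each window is in capitals. The windows lie at chr7:118116123-118116222, minus strand (Rps15a), chr2:26910732-26910831, plus strand (Rpl7a), chr10:128549144-128549243, minus strand (Rpl41) and chr5:115559392-115559491, plus strand (Rplp0). The others are chr11:68901491-68901590, plus strand (Rpl26), chr9:66946011-66946110, plus strand (Rps27l), chr17:46782632-46782731, minus strand (Rpl7l1) and chr3:28805433-28805532, plus strand (Rpl22l1).
Rps15a: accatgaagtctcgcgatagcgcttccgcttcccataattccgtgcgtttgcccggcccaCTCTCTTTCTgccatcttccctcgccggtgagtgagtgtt
Rpl7a: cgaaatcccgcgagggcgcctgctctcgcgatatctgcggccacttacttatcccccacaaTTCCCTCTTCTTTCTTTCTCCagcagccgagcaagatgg
Rpl41: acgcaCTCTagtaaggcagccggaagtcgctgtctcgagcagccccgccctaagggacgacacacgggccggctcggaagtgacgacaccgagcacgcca
Rplp0: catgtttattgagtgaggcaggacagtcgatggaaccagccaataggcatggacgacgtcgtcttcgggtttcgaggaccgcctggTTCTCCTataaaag
Rpl26: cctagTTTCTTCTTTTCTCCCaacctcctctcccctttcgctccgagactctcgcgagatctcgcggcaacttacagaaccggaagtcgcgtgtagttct
Rps27l: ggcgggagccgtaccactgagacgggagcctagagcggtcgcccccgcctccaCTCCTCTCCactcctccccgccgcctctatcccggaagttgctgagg
Rpl7l1: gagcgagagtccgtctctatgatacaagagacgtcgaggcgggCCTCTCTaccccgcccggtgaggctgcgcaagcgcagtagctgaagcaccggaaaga
Rpl22l1: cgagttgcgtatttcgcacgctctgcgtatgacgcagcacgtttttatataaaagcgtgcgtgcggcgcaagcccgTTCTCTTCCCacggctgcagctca

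Long runs were found on both sides. The longest unbroken run of C and T was 10 bases in Rps15a, 21 in Rpl7a, 4 in Rpl41 and 7 in Rplp0, and 16 in Rpl26, 9 in Rps27l, 7 in Rpl7l1 and 10 in Rpl22l1. Relative to the annotated start, these runs began at -15, -14, -70 and 12, and at -70, -22, -32 and 2, in that order. A TOP tract begins the mRNA, so runs away from the start, as in Rpl41, Rplp0, Rpl26, Rps27l and Rpl7l1, cannot be taken as TOP tracts. The run of Rps15a also ended before the annotated start, and that of Rpl7a spanned it. Which start these cells used was not tested, and the annotated starts differ between sources. In GENCODE M21, Rpl41, on the minus strand, starts at 128549305. Its whole window therefore lies inside that gene, and its run of 4 bases comes from there. Rps15a, Rpl7a, Rpl7l1 and Rpl22l1 also start further upstream in GENCODE than the start used here, and Rpl26 further downstream. Over all 59 members the median longest run in this window was 9, and 44.1% had a run of at least 10, against 17.6% of the tested genes with a promoter entry. Across the whole window of 300 bases, CTTTCC on the sense strand occurred in 33.9% of members, 14.0% of all genes with an entry and 14.9% of tested genes. CCGGAAG, a core of ETS factor motifs, searched on both strands, occurred in 40.7%, 9.12% and 20.1%. AAGATGGC on both strands was found in 6.78%, 2.88% and 5.35%, and TATAAA on the sense strand in 10.2%, 8.88% and 4.35%. Members with CTTTCC had a median nicotine change of 0.60 and members without it 0.64. For CCGGAAG the medians were 0.60 and 0.64 as well. The rarer motifs went the other way, with 0.71 in the 4 members with AAGATGGC and 0.62 in those without it. The medians were 0.70 in the 6 members with TATAAA and 0.62 in those without it.

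On the deposited scale the median nicotine ratio of the members was above 1 in all 4 matched pairs. It was 1.59-fold in KO and 1.67-fold in WT with LPS, and 1.42-fold in KO and 1.46-fold in WT without LPS. Under quantile scaling it was 1.99-fold in KO and 1.72-fold in WT with LPS, and 1.10-fold in KO and 1.05-fold in WT without LPS, close to 1. Single pairs of libraries have no test. At least 1.5-fold higher were 49 (KO) and 55 (WT) of 80 members with LPS, where 24.9% and 28.2% of genes averaging 5 FPKM or more were. Without LPS 21 (KO) and 33 (WT) members were, against 32.6% and 33.9% of such genes.

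The difference between the nicotine effect in KO and in WT was tested as an interaction. No member passed in either direction, 0 of 80 had an unadjusted p under 0.05 (64 of 10447 genes did), and the median difference, KO minus WT, was -0.06. The largest differences were 0.34 ± 0.45 for Rpl26 and -0.49 ± 0.42 for Rpl21 (limma adjusted p = 1.0 for both). With an error of this size, the test does not show that the genotypes responded alike. None of the 10447 genes tested passed (0.0% in either direction).

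The nicotine effect with LPS minus that without it was above 0 in 64 of 80 members, with a median of 0.16 against -0.11 for all genes. No member was called higher and 2 were called lower, Rpl7a and Rps27l, where 12.8% and 17.3% of all genes were. This comparison turned on the scaling. With equal FPKM sums 65 members were called higher, where 32.0% of all genes were, and with quantile scaling 55, where 15.0% were. Neither called a member lower, and the medians were 0.82 and 0.79. Equal sums moved the median of all genes to 0.46. In single pairs with equal sums, the median nicotine ratio was 2.16-fold in KO and 2.02-fold in WT with LPS, and 1.20-fold in KO and 1.14-fold in WT without LPS.

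Rps27l, a relative of Rps27, had no near-identical gene in the annotation and showed the clearest crossing. In KO it had 181 FPKM with nicotine against 136 with vehicle, and in WT 148 against 105. After LPS it had 165 FPKM with nicotine against 257 without it in KO, and 141 against 235 in WT. Nicotine libraries were thus higher in both pairs without LPS and lower in both pairs with LPS, a difference of -1.13 ± 0.18 (limma adjusted p = 0.00833). Under equal sums it was -0.47 (adjusted p = 0.0933) and under quantile scaling -0.28 (adjusted p = 0.321).

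Rpl7a, a large subunit protein with 30 near-identical genes, had 198 FPKM with nicotine against 82.0 with vehicle in KO, and 206 against 65.2 in WT. After LPS the values were 310 with nicotine against 192 without it in KO, and 267 against 303 in WT. The difference of the nicotine effects was -1.19 ± 0.34 (limma adjusted p = 0.0413), and the call ended under equal sums, under quantile scaling and without 5 of the 8 libraries in turn.

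**Figure D4:**
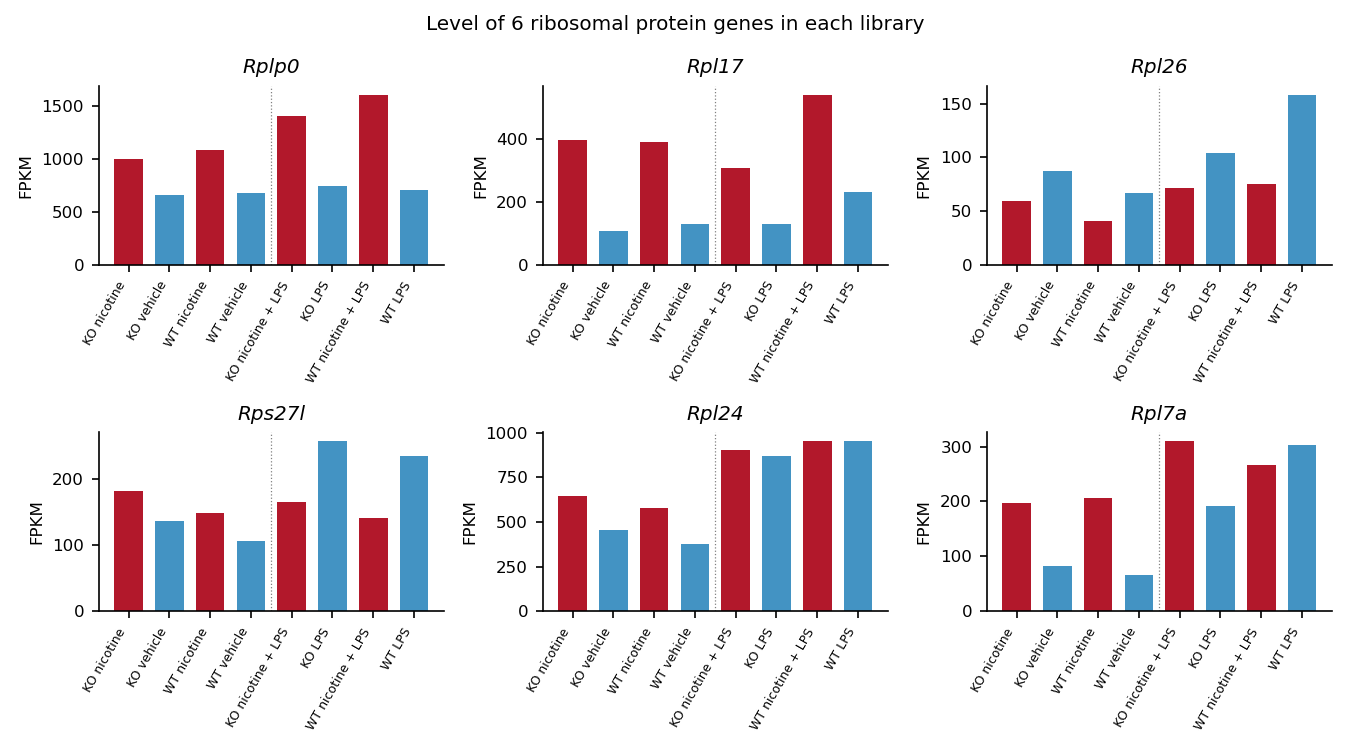
FPKM of 6 ribosomal protein genes in each library (1 library per group, so no error bars; red with nicotine, blue without; the dotted line separates libraries without LPS from those with LPS). Rplp0 and Rpl17 are higher in all nicotine libraries, Rpl26 is lower with nicotine in each pair, Rps27l is highest with LPS alone (257 FPKM in KO and 235 in WT), and Rpl24 is high in all 4 LPS libraries.

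LPS changed fewer members, and the direction of the group depended on the scaling. On the deposited scale 15 of 80 were called higher and 0 lower (limma, adjusted p under 0.05), where 15.8% of all genes were called higher and 11.3% lower, so the members' 15 lay near the background. The median change was 0.29, and 78 of 80 were above 0. In 53 members the value was higher with LPS in all 4 matched pairs, against 26.8% of all genes. With equal FPKM sums the median was -0.33 with 0 calls in either direction, and with quantile scaling it was -0.49 with 0 higher and 3 lower, where 15.4% of all genes were called lower. Equal sums also moved the median of all genes to -0.51. Leaving out 1 library at a time left 0 to 7 members higher, with 0 without KO vehicle and 1 without WT vehicle or KO LPS. The lowest fitted values were -0.09 ± 0.19 for Rps27a and -0.0009 ± 0.17 for Rpl22, and Rpl10 (0.10 ± 0.12) and Rps15 (0.11 ± 0.16) followed.

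Rpl24, a large subunit protein that forms a bridge to the small subunit, was 1 of 2 members, with Rpl22l1, in which all 4 LPS libraries were above all 4 others, against 9.83% of all genes. It had 905 (KO nicotine), 871 (KO), 954 (WT nicotine) and 952 FPKM (WT) with LPS, against 643, 458, 579 and 374 in the partners without LPS. The change was 0.87 ± 0.16 (limma adjusted p = 0.0128), 0.26 under equal sums (adjusted p = 0.16) and 0.09 under quantile scaling (adjusted p = 0.655). Rpl7a had the largest fitted LPS change (1.11 ± 0.29, adjusted p = 0.0347). Its call was lost without WT vehicle, WT LPS, KO vehicle, KO LPS or KO nicotine and LPS. Rpl22l1 had a change of 0.48 ± 0.14 (adjusted p = 0.0456), and its call was lost without any 1 of the 8 libraries, under all 3 other scalings, without a filter, with LPS as the only term and in the fit blocked by matched pair. Rpl26 (0.66 ± 0.21) and Rpl7l1 (0.62 ± 0.21) did not pass the test.

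**Figure D5:**
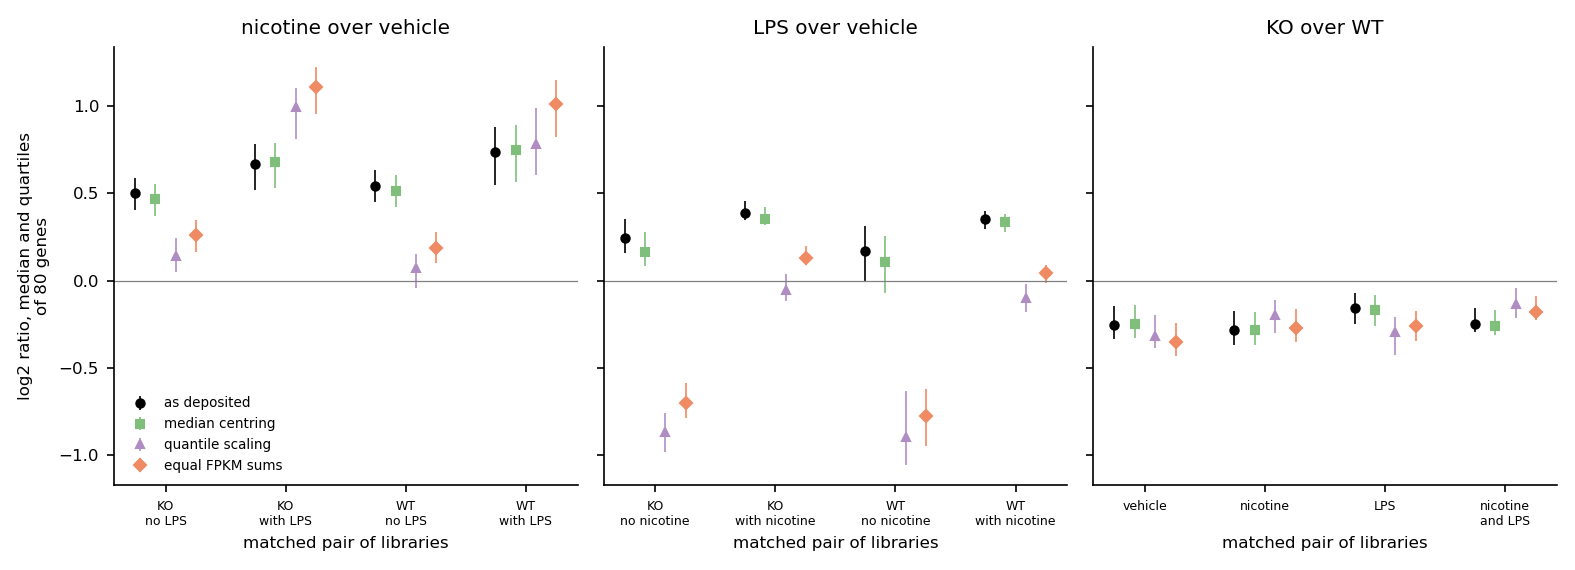
Median log2 ratio of the 80 genes (points, with quartiles as bars) in each matched pair of libraries, for nicotine over vehicle, LPS over vehicle and KO over WT, on the deposited scale (black circles), with median centring (green squares), quantile scaling (violet triangles) and equal FPKM sums (orange diamonds). Without nicotine the LPS medians are 0.24 in KO and 0.17 in WT as deposited and -0.70 and -0.78 with equal sums, where those of all genes tested are -0.72 and -0.74. KO over WT lies below 0 in every pair and scaling.

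The split lay between the LPS pairs. Without nicotine the median LPS ratio was 1.19-fold in KO and 1.12-fold in WT on the deposited scale, and 0.614-fold and 0.584-fold with equal sums. On the log2 scale the medians with equal sums were -0.70 and -0.78, near the -0.72 and -0.74 of all genes tested. With quantile scaling they were -0.87 and -0.90, against -0.09 and -0.06 for all genes tested. With nicotine the LPS ratio was 1.31-fold in KO and 1.28-fold in WT, and 1.09-fold and 1.03-fold with equal sums. The last 2 are 0.13 and 0.04 on the log2 scale, against -0.23 and -0.26 for all genes tested. With quantile scaling the medians with nicotine were -0.06 in KO and -0.10 in WT, near the -0.09 and -0.06 of all genes tested. The difference of the LPS effects between KO and WT passed in no member (0 with unadjusted p under 0.05, against 112 of all genes; 0.0% of genes were called), with a median of 0.06. The largest was -0.80 ± 0.32 for Rpl26 (limma adjusted p = 1.0).

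KO libraries had somewhat lower levels than WT libraries. The fitted genotype change was below 0 in 71 of 80 members, with a median of -0.23, or 0.853-fold, against -0.01 for all genes. No member passed the test in either direction (limma), 22 had an unadjusted p under 0.05, as did 1293 of all 10447 genes (12.4%), and 0.412% of all genes were called lower and 0.689% higher. With the 4 matched pairs as a block 5 were called lower, where 2.88% of all genes were. In 54 members KO was lower than WT in all 4 pairs, against 17.5% of all genes, while in no member did the 4 KO libraries lie below all 4 WT libraries, a pattern of 0.976% of all genes. The median ratio was 0.821-fold with nicotine, 0.842-fold with nicotine and LPS, 0.896-fold with LPS and 0.839-fold with vehicle. The median stayed between -0.26 and -0.23 under the scalings tried. Of 9 mast cell markers tested, 8 also had a value below 0, with a median of -0.36. Among markers of other cell types, the dendritic cell marker Cd209a (-3.85 ± 0.26, limma adjusted p = 0.00326), the macrophage marker Gata6 (-1.24 ± 0.20, adjusted p = 0.0458) and the B cell marker Fcer2a (-1.26 ± 0.20, adjusted p = 0.0465) were lower in KO. Each was the 1 call of its list, and the list medians were -0.15, 0.005 and -0.05. Of 11 macrophage markers 6 were above 0, among them Fcgr1 (1.53 ± 0.55) and Timd4 (1.45 ± 0.41). Of 3 neutrophil markers 2 were above 0, Camp (1.425 ± 0.48) and S100a8 (1.10 ± 0.20). None of these 4 passed the test. The part of these markers in the genotype result was not tested.

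Rps15 had the lowest genotype value. It was at 1103 FPKM in KO and 1504 in WT with nicotine, 1508 and 1921 with nicotine and LPS, 654 and 1147 with LPS, and 820 and 1177 with vehicle. The difference was -0.53 ± 0.16 (limma adjusted p = 0.239). Rpl17 (-0.47 ± 0.20), Rpl21 (-0.46 ± 0.21) and Rps28 (-0.45 ± 0.12) followed. Rps4l (0.39 ± 0.19) and Rps27l (0.25 ± 0.25) were the 2 members with higher values in KO in all 4 pairs, where 18.0% of all genes were, and neither passed the test.

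Other genes of translation separated by class. Of all genes tested, 24.1% rose and 22.2% fell with nicotine, and 15.8% rose and 11.3% fell with LPS. Of 22 further genes with TOP-type mRNAs, mostly elongation and initiation factors, 18 rose with nicotine and 0 fell, with a median of 0.63 close to that of the members. Npm1, a nucleolar chaperone (1.44 ± 0.12, limma adjusted p = 0.000441), and the elongation factor gene Eef2 (1.10 ± 0.17, adjusted p = 0.00293) rose most, and Eif3l (0.09 ± 0.15) and Rpl36al (0.20 ± 0.13) were lowest. Under quantile scaling 8 of the 22 rose. With LPS 6 of the 22 rose on the deposited scale and 0 with equal sums or quantile scaling. Of 29 initiation factor genes outside that list 10 rose, among them Eif5 (2.06 ± 0.17), and 2 fell, Eif2b3 (-1.63 ± 0.34) and Eif2b5 (-0.60 ± 0.18).

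Mitochondrial ribosomal protein genes, which encode the separate ribosome of that organelle, moved the other way with nicotine. Of 77 tested, 33 fell and 3 rose, with a median of -0.37, where 22.2% and 24.1% of all genes did. Under the other scalings 25 to 34 fell, and the medians lay between -0.40 and -0.35. Mrps10 (-1.45 ± 0.26, limma adjusted p = 0.005) and Mrpl10 (-1.41 ± 0.12, adjusted p = 0.000503) were lowest, and Mrps6 (1.75 ± 0.14, adjusted p = 0.000418) was highest. With LPS 4 rose and 5 fell, with a median of 0.01. With equal sums 1 rose and 38 fell, where 853 and 4382 of all 10447 genes did.

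Ribosome biogenesis factors, which process ribosomal RNA and assemble subunits, rose with nicotine in 16 of 50 and fell in 3. The nucleolar protein gene Gnl3 (2.75 ± 0.23, limma adjusted p = 0.000479) and the small subunit processing gene Nop14 (1.97 ± 0.23) led, and Rpf2 (-1.02 ± 0.27) was lowest. With LPS 12 rose and 0 fell, but with equal sums 5 rose and 4 fell. Their nicotine effect was smaller with LPS than without it in 48 of 50, as in 5866 of all 10447 genes. It passed the test in that direction in 19 of the 50, where 17.3% of all genes did. Of these biogenesis factors 15 passed in that direction under median centring and 16 under quantile scaling. With equal sums 2 passed in that direction and 2 in the other. Of the ribosomal protein genes, 64 of 80 had a difference above 0 on the deposited scale. Of 15 regulators of mTORC1 and TOP translation, 6 rose and 3 fell with nicotine, where 24.1% of all genes rose and 22.2% fell. Among those that rose were the translation repressor gene Eif4ebp1 (1.82 ± 0.21) and the mTORC1 inhibitor gene Tsc1 (1.38 ± 0.17). Those that fell included the kinase genes Rps6kb2 (-1.19 ± 0.16) and Mtor (-0.66 ± 0.14). None of these lists had a genotype call.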

How the data were processed

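RNA from 8 groups of mouse peritoneal macrophages, 1 library each, was sequenced after poly(A) selection with a kit that does not mark strand, per the labels' protocols. The authors deposited a table of FPKM, with 1 value for each gene in each library. Per the submitters' processing notes, which give neither role nor order, the tools were Cuffdiff, Cufflinks, HISAT2 and CASAVA 1.8, with mm10 as the build. No source used here gives the annotation, the read assignment among near-identical genes, the scaling between libraries or the depth in fragments. For 2 repeated symbols of 24341 lines the one with the highest mean was kept.

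Values were taken as log2(FPKM + 1), which understates changes of low genes, and genes averaging 1 FPKM or more were fitted with limma 3.58.1 (R 4.3.3, eBayes with trend) on genotype, nicotine and LPS, leaving 4 residual degrees of freedom, or with 1 interaction term added, leaving 3. Benjamini-Hochberg adjustment was over all genes tested, at 0.05. The fitting code was run on simulated data with independent noise and 200 changed genes per simulated effect. Far more genes were called with nicotine here, so that run does not bear on the error of these calls. Alternatives were pseudocounts of 0.1 and 5, other filters, quantile scaling, median centring (equal medians), equal FPKM sums, eBayes without trend, matched pairs as a block, a single term, and each library left out in turn. Near-identical genes were found with BLAST 2.17.0 and GENCODE M21. Genes named with values are the 4 highest and 4 lowest fitted values per effect and the 4 highest and lowest means. Also named are members with known extra roles, relatives of the members with an added l, and the 2 highest and lowest of each list. The members and lists were chosen with earlier results of these data known.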

Additional observations from a re-analysis of the deposited data

Results flagged for a closer look

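For 2 members the nicotine effect differed with and without LPS by the test of the interaction itself. Rps27l had a difference of -1.1292 on the log2(FPKM + 1) scale (limma adjusted p = 0.00833): nicotine libraries were higher than their partners in 2 of 2 pairs without LPS and lower in 2 of 2 pairs with LPS. Rpl7a had a difference of -1.1947 (limma adjusted p = 0.0413), with nicotine libraries higher in 2 of 2 pairs without LPS and in 1 of 2 pairs with LPS. Neither call held with equal FPKM sums or quantile scaling.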

How the results depend on the processing

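Members higher with nicotine numbered 19 with quantile scaling and 29 with nicotine as the only term, where 0 were lower, against 70 and 1; without 1 library at a time 59 to 66 were higher and 0 to 1 lower. Members higher with LPS numbered 0 with quantile scaling, equal sums or LPS as the only term, 1 with the matched pairs as a block, 2 without a filter, 6 with median centring, 8 without trend and 0 to 7 without 1 library, against 15; quantile scaling called 3 lower. The block gave 5 members lower in KO, against 0. In the nicotine by LPS interaction 55 (quantile), 65 (equal sums) and 1 (median centring) were higher, against 0, and 0 (quantile), 0 (equal sums) and 1 (no filter) lower, against 2; without 1 library 0 to 5 were higher and 1 to 3 lower. The cause of these differences was not tested.

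Some signs turned. The LPS median was -0.49 with quantile scaling and -0.33 with equal sums, where Rpl10 was at -0.74 and -0.51 and Rps15 at -0.70 and -0.51. The nicotine by genotype median was 0.1314 with quantile scaling and 0.0836 with equal sums, and -0.1416 to 0.0265 without 1 library. The LPS by genotype median was -0.0215 to 0.1452 without 1 library. For nicotine, Rpl7l1 was at -0.0149 with quantile scaling and -0.0642 to 0.2627 without 1 library, Rps27l at -0.2868 to 0.0535 and Rps4l at -0.2354 to 0.0709. For LPS, Rpl22 was at 0.0012 with a pseudocount of 5 and -0.0978 to 0.1178 without 1 library, Rps27a at -0.2561 to 0.0668 and Rps15 at -0.0082 to 0.2527. The nicotine by LPS difference of Rps4l was 0.0061 with equal sums. No paired analysis by replicate number was possible because the labels give none. Depth in counts is unknown, so no counting limits could be given.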
